A study of Mus musculus with 72 samples.

Results

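Genes of programmed cell death and cell cycle arrest were followed in the cortex of mice that model amyloid deposition and carry either of a pair of coding variants of Plcg2. The genes were the rows of the deposited log2 matrix whose symbol starts with Casp, Bcl2, Bax, Bak1, Bad, Bid, Bik, Birc, Cdk and a digit, Cdkn, Trp53, Gadd45, Fadd, Ripk or Mdm2, or is Fas or Fasl. This name rule used no measured value and took 20 of the 1266 measured genes. Described here are 18 of them: Fasl, Fas, Casp1, Casp6, Casp8, Casp9, Bad, Bax, Bcl2, Bcl2l1, Bid, Trp53, Cdkn1a, Cdk2, Cdk5, Cdk5r1, Cdk5rap3 and Cdk7. All 18 were tested with no filter on low values, and the 3 whose mean log2 value lay under 5 (Cdk2, Fas and Fasl) are described apart.

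The study set 5xFAD mice against 5xFAD mice with the M28L variant and 5xFAD mice with the P522R variant of Plcg2, a phospholipase that signals below surface receptors such as TREM2 in microglia, the macrophages of the brain. In people M28L is associated with higher and P522R with lower risk of Alzheimer's disease. Every mouse carried the 5xFAD transgenes, mutant human amyloid precursor protein and presenilin genes driven in neurons by the Thy1 promoter. Each of the 3 genotypes had 6 females and 6 males, which makes 6 groups and 36 mice, all aged 7.5 months. Mice without the transgenes were not analysed here, and the labels do not say whether 1 or both alleles of Plcg2 were changed. RNA of brain cortex was read with NanoString nCounter panels, on which a coloured barcode is hybridised to each target transcript and counted without amplification.

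Cell death by apoptosis can begin at the cell surface or in mitochondria. At the surface, ligands such as Fas ligand engage death receptors and activate the initiator caspase-8. At mitochondria, pro-apoptotic members of the Bcl2 family (Bax, Bad, Bid) are held in check by anti-apoptotic members (Bcl2, Bcl-xL), and release of cytochrome c activates caspase-9. Caspases are proteases activated by cleavage, so that a transcript level does not report their activity. The p53 protein, encoded by Trp53, can induce Bax and also Cdkn1a, whose product p21 blocks cyclin-dependent kinases and arrests the cell cycle. In post-mitotic neurons Cdk5 with its activator p35 acts outside the cell cycle, in migration and at synapses.

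A few facts of the whole data set bear on these genes. The deposited values were whole counts multiplied by 1 constant per mouse and panel, and the counts recovered from them totalled 237563 to 1957325 per mouse and panel. Depth differed between the groups: the 100 dimmest genes had a median count of 4.67 ± 0.52 (SD, n = 6) in 5xFAD females and of 13.83 ± 2.14 (SD, n = 6) in P522R females. Between these lay 4.83 ± 0.41 in M28L females, 9.92 ± 0.80 in 5xFAD males and 11.17 ± 0.68 in M28L males, while P522R males had 14.33 ± 1.63 (SD, n = 6 each). The 18 genes came from both panels, with Bax, Cdk5r1 and Cdk7 on the panel of 757 genes and the other 15 on the panel of 509 genes. On the 509-gene panel the P522R male 30 totalled only 259284 counts, against a median of 575259.5 in its group. The panels were not on a common level: the mean over mice of the panel's median log2 value was 0.10 higher in M28L than in 5xFAD mice on the 509-gene panel and 0.06 lower on the 757-gene panel. In P522R against 5xFAD mice it was 0.13 lower and 0.05 higher. Values after each mouse was centred on its median within each panel are therefore given beside the deposited ones for most differences between genotypes, as an alternative chosen after seeing the data. The labels name no run or plate, so that a difference between groups and a difference between runs cannot be told apart. Apart from the animal numbers no label states separate animals, and an M28L female pair shares the number 14, so p-values measure only the spread between these samples, which may be technical.

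**Figure D1:**
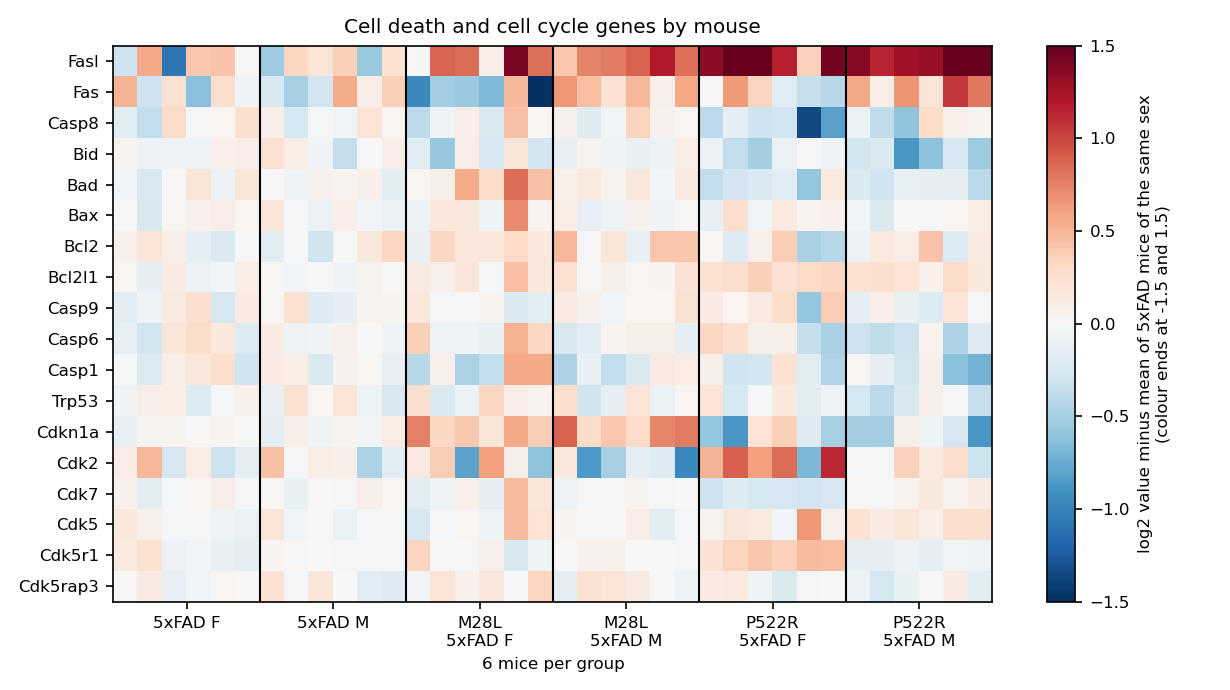
Each column is a mouse (6 per group) and each row a gene. Colour gives the deposited log2 value relative to the average 5xFAD mouse of that sex (a difference), with the scale ending at -1.5 and 1.5. Fasl is red in most P522R mice, Cdkn1a is red in the 12 M28L mice, and Cdk7 is blue in the 6 P522R females.

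With M28L, 4 of the 18 genes changed against 5xFAD over both sexes, 4 upward and 0 downward, where 10.3% of the 1266 genes passed the same test (limma, Benjamini-Hochberg adjusted p under 0.05). Cdkn1a, Fasl, Bad and Bcl2l1 rose. Of all genes 59 passed upward and 71 downward. On the 509-gene panel, which holds these 4 members, 40 genes passed upward and 7 downward, so that most calls of that panel were upward. The median difference over the 18 genes was 0.03 on the log2 scale, against 0.00 over all genes. With the medians of the panels set equal, 2 of the 18 passed, Cdkn1a and Fasl, both higher. Quantile normalization gave 4 higher and 0 lower, and centring on the housekeeping genes Tbp and Gusb 7 higher and 0 lower.

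Cdkn1a, which encodes the cell cycle inhibitor p21, was the member with the smallest p in this comparison. In 5xFAD females its log2 value ran from 7.36 to 7.53 (median 7.51), and in M28L females from 7.67 to 8.25 (median 7.87). In 5xFAD males it ran from 7.91 to 8.17 (median 8.06), and in M28L males from 8.33 to 8.94 (median 8.62). The groups did not overlap in either sex. Cdkn1a was 0.49 ± 0.11 (SE) higher on the log2 scale with M28L, or 1.41-fold (adjusted p = 0.00182, limma), and 12 of 12 M28L mice lay above the 5xFAD mean of their sex. Centred within panels the rise was 0.39 (adjusted p = 0.00875). The P522R mice lay at the other end. Their females ran from 6.61 to 7.84 (median 7.14) and their males from 7.18 to 8.144 (median 7.68), overlapping the 5xFAD mice in both sexes and spread more widely than them. Against 5xFAD the fall was 0.31 ± 0.11 (SE; adjusted p = 0.0118), with 9 of 12 mice below the 5xFAD mean. It no longer passed with centring within panels, at -0.18 (adjusted p = 0.109).

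Bad, a pro-apoptotic member of the Bcl2 family that binds and neutralises Bcl-xL, moved in the same directions as Cdkn1a: up in M28L and down in P522R mice, each against the same 12 5xFAD mice. Females of 5xFAD ran from 7.96 to 8.38 (median 8.17), of M28L from 8.22 to 9.04 (median 8.56) and of P522R from 7.61 to 8.35 (median 7.94). Males of 5xFAD ran from 8.57 to 8.81 (median 8.76), of M28L from 8.68 to 8.90 (median 8.84) and of P522R from 8.32 to 8.61 (median 8.55). Each variant's range overlapped that of the 5xFAD mice in both sexes. Bad was 0.23 ± 0.07 (SE) higher with M28L (adjusted p = 0.0392, limma) and 0.23 ± 0.07 (SE) lower with P522R (adjusted p = 0.00659). With centring within panels neither passed: the differences were 0.13 (adjusted p = 0.207) and -0.10 (adjusted p = 0.166). Leaving out any of 15 of the 36 mice in turn also ended the M28L call, with an adjusted p of up to 0.0769. These were 4 5xFAD females, 3 5xFAD males, 3 M28L females and 5 M28L males.

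As Cdkn1a and Bad were the members that differed from 5xFAD upward with M28L and downward with P522R on the deposited scale, the sequences around their annotated starts are shown. RefSeq (build GRCm38.p6) gives each gene a pair of start windows, each with 250 bases before and 50 after the start. Capitals mark the GC box GGGCGG, the TATA motif TATAA and the CCAAT box CCAAT, each found on either strand, and no marked motif overlaps another.
Cdkn1a, upstream start, chr17:29090729-29091028, plus strand: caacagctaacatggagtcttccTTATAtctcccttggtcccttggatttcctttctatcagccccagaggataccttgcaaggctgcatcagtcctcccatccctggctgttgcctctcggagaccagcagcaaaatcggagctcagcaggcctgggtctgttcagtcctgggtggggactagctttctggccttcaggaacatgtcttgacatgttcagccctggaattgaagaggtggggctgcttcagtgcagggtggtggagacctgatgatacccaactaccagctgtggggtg
Cdkn1a, downstream start, chr17:29093519-29093818, plus strand: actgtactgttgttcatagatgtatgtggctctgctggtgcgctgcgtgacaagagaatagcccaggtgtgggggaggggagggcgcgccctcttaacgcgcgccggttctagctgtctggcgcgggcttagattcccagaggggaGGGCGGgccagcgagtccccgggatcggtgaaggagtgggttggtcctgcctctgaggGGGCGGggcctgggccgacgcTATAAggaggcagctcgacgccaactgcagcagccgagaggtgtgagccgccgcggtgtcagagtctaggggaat
Bad, upstream start, chr19:6941611-6941910, plus strand: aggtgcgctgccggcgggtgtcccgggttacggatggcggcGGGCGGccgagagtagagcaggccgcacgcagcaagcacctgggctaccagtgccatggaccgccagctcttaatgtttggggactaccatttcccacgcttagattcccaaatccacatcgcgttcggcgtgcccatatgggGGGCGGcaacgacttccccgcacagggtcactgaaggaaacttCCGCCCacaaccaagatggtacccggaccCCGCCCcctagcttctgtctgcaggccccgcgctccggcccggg
Bad, downstream start, chr19:6942312-6942611, plus strand: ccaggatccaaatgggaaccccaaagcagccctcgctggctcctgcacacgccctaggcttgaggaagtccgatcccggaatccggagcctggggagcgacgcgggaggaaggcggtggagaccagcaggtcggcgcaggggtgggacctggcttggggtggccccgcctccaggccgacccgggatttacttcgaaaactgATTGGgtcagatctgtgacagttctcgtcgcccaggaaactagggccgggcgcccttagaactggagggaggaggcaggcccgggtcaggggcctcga
The upstream Cdkn1a window held 1 TATA motif, no GC box and 2 matches to the p53 consensus decamer, which begin at bases 178 and 200 of the window and are not in capitals. The downstream Cdkn1a window held 2 GC boxes and 1 TATA motif. In Bad the upstream window held 4 GC boxes and the downstream window 1 CCAAT box. Of the 18 genes, 16 had a window in the table. A p53 decamer was found in 4 of these 16 genes (Bax, Cdkn1a, Fasl and Trp53) and in 8.36% of all 32851 windows. A GC box was in 12 of the 16 genes and 35.7% of all windows, a TATA motif in 2 and 24.9%, and a CCAAT box in 6 and 37.4%. A gene with several windows counted once, so these counts of genes and shares of windows have different denominators. A match describes the letters of a window and is not a measured binding site.

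**Figure D2:**
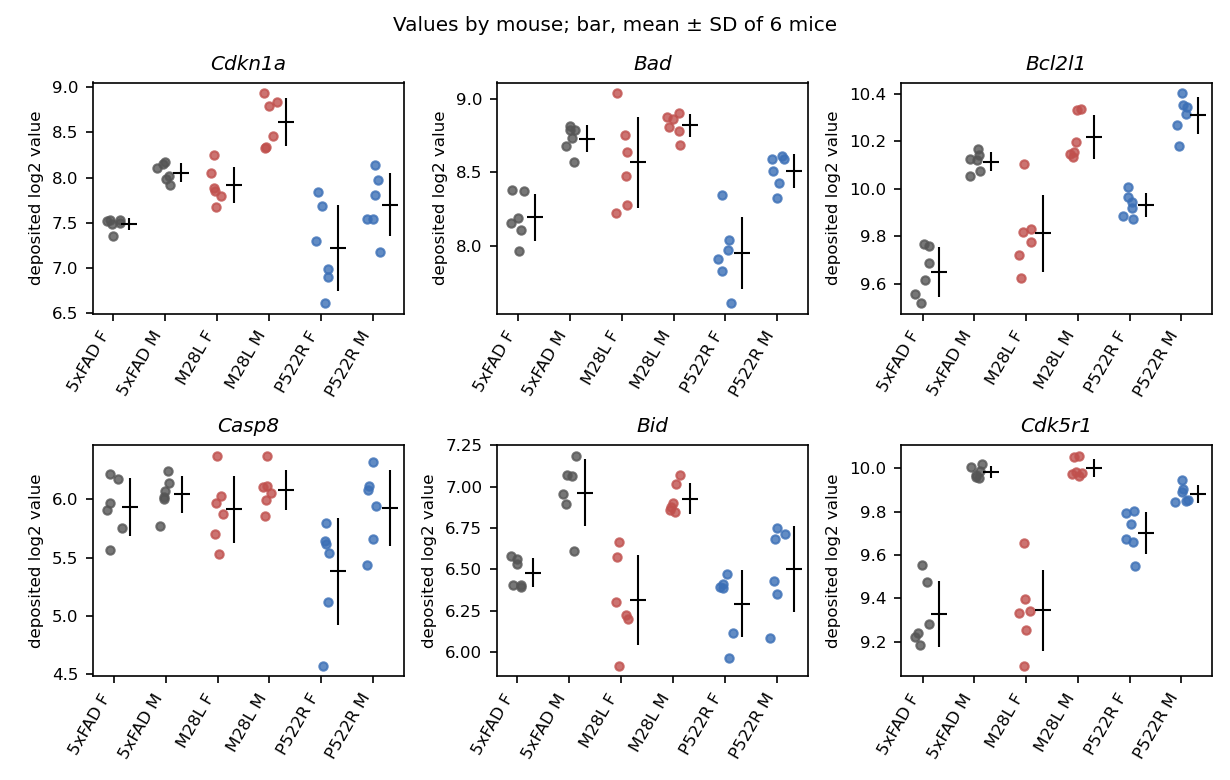
Deposited log2 values of 6 genes by group, with a point per mouse and a bar for the mean ± SD of 6 mice. In both sexes the mean of Cdkn1a is highest in M28L and that of Casp8 lowest in P522R mice, and Cdk5r1 in P522R lies on average above 5xFAD in females and below it in males.

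Of the other M28L calls, that of Fasl is described with the members of low level, and that of Bcl2l1 was a smaller rise. Bcl2l1, which encodes the anti-apoptotic protein Bcl-xL, was 0.13 ± 0.04 (SE) higher with M28L (adjusted p = 0.0399, limma). This call was lost with median centring (0.13, adjusted p = 0.0599), with centring within panels (0.03, adjusted p = 0.706) and on leaving out any of 13 of the 36 mice in turn (adjusted p up to 0.0777), of which 3 were 5xFAD females, 4 5xFAD males, 3 M28L females and 3 M28L males.

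Microglial, endothelial and astrocyte markers moved beside these M28L changes, where 10.3% of all genes passed. Of 8 microglial markers 1 rose and 3 fell with M28L, and their summed log2 level was 12.75 to 13.04 in M28L females against 13.04 to 13.49 in 5xFAD females, and 12.71 to 13.20 against 13.00 to 13.39 in males. Marker levels were summed on the linear scale, so that the brightest marker weighs most in each sum. Cd68 fell by 0.54 and Cx3cr1 by 0.42 (adjusted p = 0.00086 and 0.00438, limma). The endothelial marker Cldn5 fell by 0.55 (adjusted p = 4.03e-05), the only called one of 4. The summed endothelial level was 8.41 to 8.86 in M28L females against 8.75 to 9.37 in 5xFAD females, and 9.36 to 9.48 against 9.59 to 9.99 in males, where the groups did not overlap. Of 5 astrocyte markers 1 fell, Gfap by 0.38 (adjusted p = 0.033). The part of these markers in the M28L changes of the members was not tested. In bulk cortex fewer cells of a type and less RNA per cell cannot be told apart.

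With P522R, 8 of the 18 genes differed from 5xFAD over both sexes, 4 higher and 4 lower. The background was 65.4% of all genes, with 513 higher and 315 lower. The members' share was thus below that of the whole table, and their median difference was -0.03 against 0.08 over all genes. Fasl, Bcl2l1, Cdk5 and Cdk5r1 rose, and Casp8, Bid, Bad and Cdkn1a fell. The split depended on the scale: median centring gave 2 higher and 5 lower, housekeeping centring 2 and 4, and centring within panels 5 and 2.

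Casp8, the initiator of the receptor route, ran from 4.57 to 5.80 (median 5.58) in P522R females against 5.56 to 6.22 (median 5.94) in 5xFAD females. In males it ran from 5.43 to 6.32 (median 6.01) against 5.77 to 6.24 (median 6.04). The females overlapped from 5.56 to 5.80, with all 6 P522R females below the 5xFAD mean, and the P522R males spanned the whole range of the 5xFAD males. Casp8 fell by 0.33 ± 0.12 (SE; adjusted p = 0.0128), but by 0.20 with centring within panels, where it did not pass (adjusted p = 0.0823).

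In the Bcl2 family, the anti-apoptotic Bcl2l1 rose and the pro-apoptotic Bid and Bad fell, while Bcl2 and Bax did not pass. Bcl2l1 ran from 9.52 to 9.77 (median 9.65) in 5xFAD females and from 9.87 to 10.01 (median 9.93) in P522R females. In males it ran from 10.06 to 10.17 (median 10.12) in 5xFAD and from 10.18 to 10.40 (median 10.33) in P522R mice. The groups did not overlap in either sex, and the M28L mice, at 9.62 to 10.10 in females and 10.13 to 10.34 in males, overlapped both of the other genotypes. Bcl2l1 was 0.24 ± 0.04 (SE) higher with P522R, or 1.18-fold (adjusted p = 7.77e-06, limma), in 12 of 12 mice, and 0.37 higher with centring within panels (adjusted p = 4.06e-09). Bid, which caspase-8 cleaves to link the receptor route to mitochondria, ran from 5.97 to 6.47 (median 6.39) in P522R females against 6.39 to 6.58 (median 6.47) in 5xFAD females. In males it ran from 6.09 to 6.75 (median 6.56) against 6.61 to 7.19 (median 7.01). The groups overlapped, and 12 of 12 P522R mice lay below the 5xFAD mean of their sex. Bid fell by 0.32 ± 0.08 (SE; adjusted p = 0.000936) and by 0.19 with centring within panels (adjusted p = 0.0397).

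Cdk5 and its activator Cdk5r1, which encodes p35, rose with P522R on the deposited scale. Cdk5 ran from 9.53 to 10.23 (median 9.69) in P522R females against 9.48 to 9.74 (median 9.54) in 5xFAD females, and from 9.95 to 10.11 (median 10.05) against 9.75 to 10.04 (median 9.82) in males. The groups overlapped in both sexes. The rise was 0.18 ± 0.06 (SE; adjusted p = 0.0116, limma). It missed the threshold with median centring (0.15, adjusted p = 0.0514) and housekeeping centring (0.15, adjusted p = 0.217), and was 0.31 with centring within panels (adjusted p = 0.000423). Cdk5r1 was 0.14 ± 0.05 (SE) higher (adjusted p = 0.0106), with 6 of 12 mice above the 5xFAD mean. That call was lost under median centring (0.10, adjusted p = 0.0869), under centring within panels (0.09, adjusted p = 0.144) and under housekeeping centring (0.10, adjusted p = 0.373). Its mean over the sexes joins a rise in females (0.38, adjusted p = 1.22e-05) and a difference of opposite sign in males. The male difference of -0.10 did not pass (adjusted p = 0.195).

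**Figure D3:**
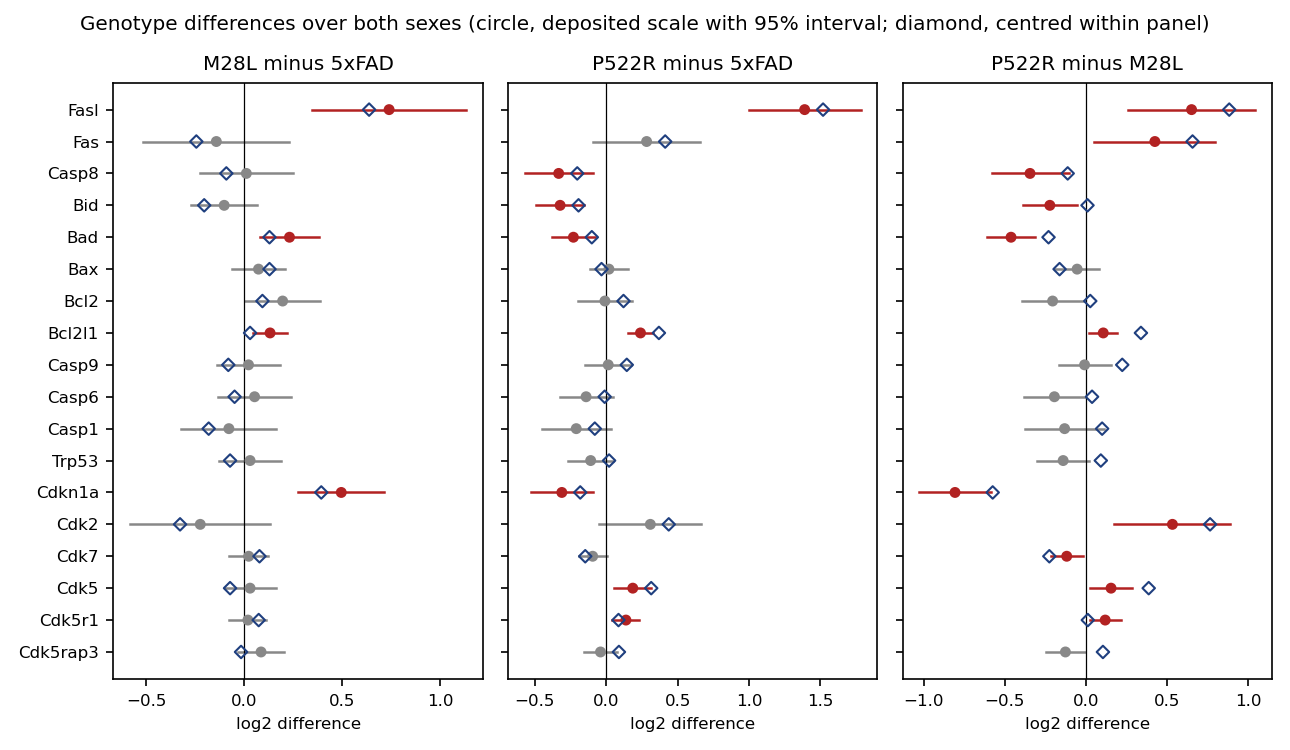
Log2 differences of the 18 genes for 3 genotype comparisons averaged over the sexes. Circles with bars are deposited-scale differences with their 95% interval, red where limma's adjusted p is under 0.05 and grey otherwise, and open diamonds are the differences after centring within panels. The diamonds of genes on the 509-gene panel lie left of the circles for M28L and right of them for P522R.

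Markers of several cell types also passed with P522R, beside 65.4% of all genes (60.2% in females and 50.6% in males). All 3 markers of oligodendrocyte precursors rose (Pdgfra by 0.47, Gpr17 by 0.80 and Cspg4 by 0.61), with a summed log2 level of 9.67 to 10.23 in P522R females against 9.07 to 9.33 in 5xFAD females, and of 10.02 to 10.41 against 9.55 to 9.95 in males. Of 6 T cell markers 5 rose, although 5 of the 6 had a mean under 20 counts. Their summed level was 7.69 to 8.23 in P522R females against 7.45 to 8.00 in 5xFAD females and 8.12 to 8.81 against 7.64 to 8.23 in males. This sum mainly follows Cd4, the remaining marker, with a mean of 196.5 counts, which rose by 0.36. Neuronal markers, present in every mouse of this cortical tissue at a summed log2 level of 15.10 or more, split into 3 higher and 1 lower of 6. Among 5 astrocyte markers 4 rose. Of 4 endothelial markers 2 fell over both sexes, but in females 2 rose and 0 fell (median difference 0.26) and in males 0 rose and 3 fell (median -0.50). The part of these markers in the members' changes was not tested.

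Set directly against each other, the variants differed in 11 of the 18 genes, 6 higher and 5 lower in P522R. Of all genes 67.6% passed, 525 higher and 331 lower. The median difference was -0.12 over the 18 genes and 0.10 over all genes. Median centring gave 2 higher and 9 lower, quantile normalization 3 and 7, housekeeping centring 1 and 11, and centring within panels 6 and 4. Cdkn1a and Bad showed the smallest p. Cdkn1a was 0.81 ± 0.11 (SE) lower in P522R than in M28L mice, or 1.75-fold (adjusted p = 4.32e-08, limma), in 12 of 12 mice, and 0.58 lower with centring within panels (adjusted p = 5.98e-06). Bad was 0.46 ± 0.07 (SE) lower (adjusted p = 1.15e-06), also in 12 of 12 mice, and 0.23 lower with centring within panels (adjusted p = 0.0021). Both genes had a single sex in which the groups overlapped.

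Casp8 was 0.35 lower in P522R than in M28L mice (adjusted p = 0.00982, limma), and did not pass with centring within panels (-0.11, adjusted p = 0.339). Bid was 0.22 lower (adjusted p = 0.018) on the deposited scale and 0.01 higher with centring within panels (adjusted p = 0.929). Small differences that passed included a lower Cdk7 (-0.12, adjusted p = 0.0299) and a higher Bcl2l1 (0.11, adjusted p = 0.0263), Cdk5 (0.15, adjusted p = 0.0321) and Cdk5r1 (0.12, adjusted p = 0.0246). With housekeeping centring the last 3 turned to -0.10, -0.05 and -0.08 and none of them passed. A single mouse could end each of these 4 calls. Without the M28L female 16 the adjusted p of Bcl2l1 was 0.0605, and without the M28L female 20 those of Cdk5r1 and Cdk7 were 0.0581 and 0.0724. Cdk7 also missed at 0.0566 without the M28L female 28. For Cdk5 the adjusted p was 0.083 without the P522R female 60, 0.0614 without the M28L male 21, and 0.0753, 0.0539 and 0.0508 without the M28L females 12, 16 and the mouse numbered 14 with index F1.

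Females lay below males in most of these genes, as in most of the table. In 5xFAD mice 12 of the 18 genes were lower in females and none higher, where 72% of all genes passed. In M28L mice 13 were lower and none higher, beside 69% of all genes, and in P522R mice again 13 lower and none higher, beside 69.6%. The members' median difference was -0.49, -0.42 and -0.40, and that of all genes -0.41, -0.38 and -0.30. The shares and medians of the members were close to those of the table, in which 888 of 911, 836 of 873 and 871 of 881 called genes were lower in females.

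After each mouse was centred on its median over all genes, 4 of the 18 genes differed between the sexes in 5xFAD (1 higher and 3 lower in females) beside 42.2% of all genes, 6 in M28L (2 higher and 4 lower) beside 46.8%, and none in P522R beside 7.03%. The 0 calls in P522R compare with 3 members at an unadjusted p under 0.05 in limma, and quantile normalization and housekeeping centring also gave 0. Other scalings also split the calls: centring within panels gave 3 higher and 1 lower in 5xFAD and 5 and 2 in M28L mice, quantile normalization 2 and 1 and then 2 and 2, and housekeeping centring 0 and 5 and then 2 and 2. Among the members Cdk5r1 had the smallest p in both 5xFAD and M28L mice. Its value was 9.18 to 9.56 in 5xFAD females against 9.96 to 10.02 in 5xFAD males, and 9.09 to 9.66 against 9.97 to 10.06 in M28L mice, with no overlap. It was lower in females by 0.66 in each (adjusted p = 1e-10 and 1.01e-10, limma), and by 0.28 and 0.31 with median centring (adjusted p = 0.00245 and 0.000781). Trp53, the p53 gene, was lower in females by 0.69, 0.62 and 0.52 in 5xFAD, M28L and P522R mice (adjusted p = 1.51e-06, 8.96e-06 and 0.000188). With median centring these became -0.31 (adjusted p = 0.0229), -0.27 (adjusted p = 0.0428) and -0.26 (adjusted p = 0.135). None passed with centring within panels, at -0.18, -0.12 and -0.10 (adjusted p = 0.175, 0.349 and 0.723), or with quantile normalization (adjusted p = 0.0531, 0.169 and 0.107).

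Most other members with small p in the sex comparisons no longer passed once the general shift was taken off. Bcl2l1 was lower in females by 0.46, 0.40 and 0.38 in 5xFAD, M28L and P522R mice, without overlap in any, but its median-centred differences were -0.08, -0.06 and -0.12 and its panel-centred ones 0.05, 0.09 and 0.04, none of which passed. Cdk5rap3, which encodes a protein that binds the p35 activator, was lower by 0.50, 0.44 and 0.42. Centred within panels its differences were 0.01, 0.05 and 0.00 and did not pass. Bad was lower in females by 0.53 in 5xFAD and by 0.56 in P522R mice, Casp9, the initiator of the mitochondrial route, by 0.66 in M28L mice. Of these, Casp9 in M28L mice still passed with median centring (-0.31, adjusted p = 0.0199), but not with centring within panels (-0.17, adjusted p = 0.189), quantile normalization (-0.24, adjusted p = 0.0643) or housekeeping centring (-0.34, adjusted p = 0.0519). Cdk7, a kinase of the CDK-activating complex and of transcription factor TFIIH, was near equal between the sexes in 5xFAD (0.02) and M28L mice (0.09) on the deposited scale, and was thus higher in females relative to the median gene (0.40 and 0.44 with median centring, adjusted p = 1e-05 and 1.82e-06). In P522R mice Cdk7 was lower in females by 0.30, without overlap (adjusted p = 0.000325), and its median-centred difference of -0.05 did not pass.

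**Figure D4:**
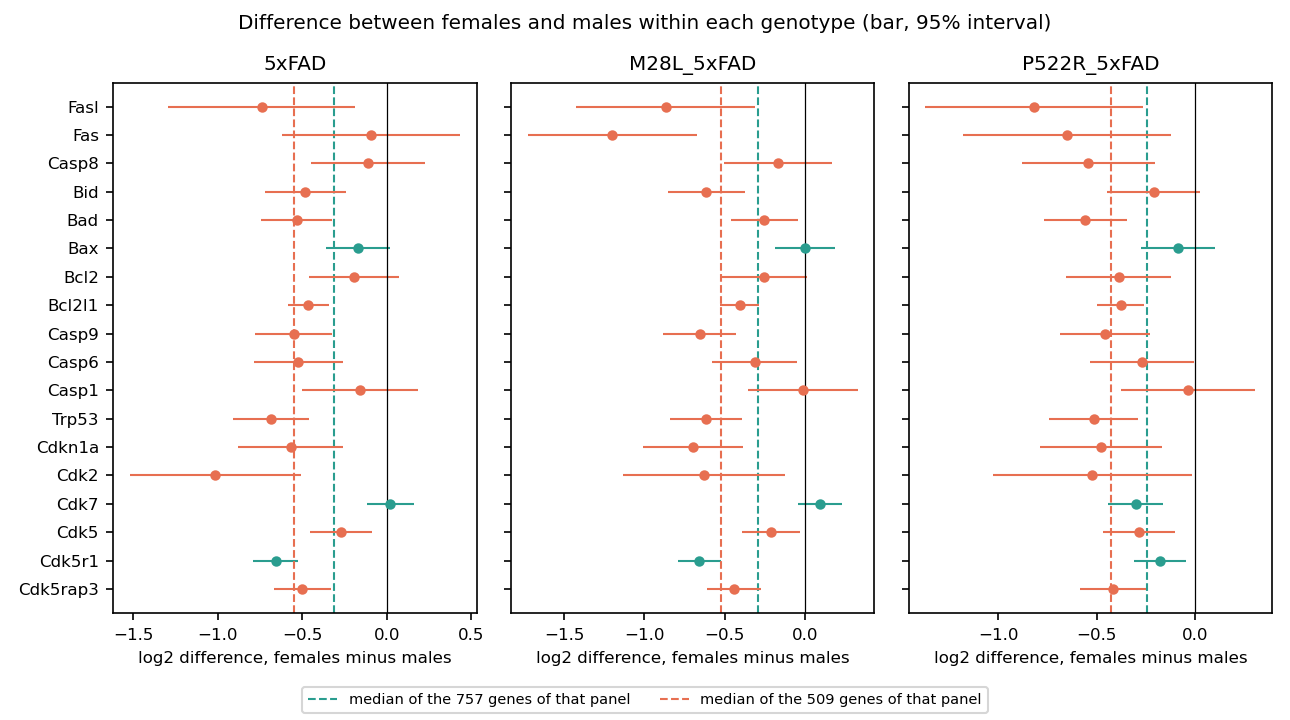
Log2 differences between females and males of the 18 genes within each genotype, with 95% intervals. Genes of the 757-gene panel are green and those of the 509-gene panel orange, and dashed lines mark the median difference of each panel. Most points lie left of 0, at varying distances from the dashed line of their panel.

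Within a single sex, few members passed for M28L. In females it was Bad, at 0.37 ± 0.10 (SE; adjusted p = 0.0394, limma), beside 3.87% of all genes. Centring within panels left Bad at 0.26 (adjusted p = 0.0995). In males it was Cdkn1a, at 0.56 ± 0.15 (SE; adjusted p = 0.0411), beside 2.05% of all genes. Centring within panels left it at 0.47 (adjusted p = 0.0815). In females the difference of Cdkn1a was 0.43 ± 0.15 (SE) and did not pass (adjusted p = 0.11), although the groups did not overlap. Both calls were lost on leaving out single mice: 7 different mice for Bad (4 5xFAD and 3 M28L females) and 9 for Cdkn1a (6 5xFAD and 3 M28L males), at an adjusted p of up to 0.113 and 0.14. The direct test of a different M28L effect in females and males called 0 members and 0% of all genes, with 34 of 1266 genes and 1 member at an unadjusted p under 0.05, and so does not show that the effects of M28L differ between the sexes.

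For P522R, 6 members passed in females, 3 higher and 3 lower, beside 60.2% of all genes. They were Fasl (1.35), Cdk5r1 (0.38) and Bcl2l1 (0.28) on the higher side and Casp8 (-0.55), Cdk7 (-0.26) and Bad (-0.24) on the lower. Of these, all but Bad (-0.16, adjusted p = 0.13) also passed with centring within panels, Casp8 at -0.47 (adjusted p = 0.00727). In males 4 passed, beside 50.6% of all genes: Fasl (1.43) and Bcl2l1 (0.20) were higher, and Bid (-0.46) and Cdkn1a (-0.36) lower. Of these, all but Cdkn1a (-0.18, adjusted p = 0.278) also passed with centring within panels. The split in females was 2 higher and 1 lower with housekeeping centring, 3 and 5 with median centring and 5 and 2 with centring within panels. In males these settings gave 1 and 2, 2 and 1, and 4 and 1, and quantile normalization 4 and 1. The calls of Bad in females (adjusted p = 0.0424, limma) and Cdkn1a in males (adjusted p = 0.0489) were the closest to the threshold. Without single mice both were lost: for Bad with any of 4 5xFAD and 4 P522R females left out (adjusted p up to 0.141), and for Cdkn1a with any of 22 of the 36 mice (adjusted p up to 0.173).

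Tested directly, the P522R effect differed between the sexes in 2 of the 18 genes, Cdk5r1 and Cdk7, where 20.9% of all genes passed. In 5xFAD mice Cdk5r1 was 9.18 to 9.56 in females (median 9.26) and 9.96 to 10.02 in males (median 9.98). In P522R mice it was 9.55 to 9.81 in females (median 9.71) and 9.84 to 9.95 in males (median 9.87). The P522R females overlapped the 5xFAD females only at 9.55 to 9.56, whereas the P522R males lay wholly below the 5xFAD males. On its own the male difference of -0.10 did not pass (adjusted p = 0.195, limma). For Cdk5r1 the P522R effect in females, a rise, minus that in males, of opposite sign, was thus 0.48 ± 0.09 (SE; adjusted p = 0.000378, limma). For Cdk7 the P522R females, at 9.56 to 9.68 (median 9.62), lay wholly below the 5xFAD females, at 9.72 to 9.97 (median 9.88). The P522R males, at 9.84 to 10.01 (median 9.90), overlapped the 5xFAD males, at 9.74 to 9.95 (median 9.86). The P522R effect on Cdk7 in females minus that in males was -0.32 ± 0.10 (SE; adjusted p = 0.0167, limma). Both passed with centring within panels, at 0.44 and -0.36 (adjusted p = 0.00267 and 0.0114). Neither passed with housekeeping centring, where the values were 0.54 (adjusted p = 0.0817) and -0.27 (adjusted p = 0.359). The next members by p, with no call, were Casp8 (-0.43), Bid (0.27) and Fas (-0.56). By the dimmest genes, depth differed more between 5xFAD and P522R females than between the males of these genotypes. Cell type markers also differed in their P522R effect between the sexes, each with the higher effect in females: 4 of 4 endothelial markers (median 0.67), 3 of 6 neuronal markers (0.30), 2 of 3 markers of oligodendrocyte precursors (0.51), 2 of 5 of oligodendrocytes (0.01) and 1 of 5 of astrocytes (0.18). The part of depth and of these markers in the differences of Cdk5r1 and Cdk7 was not tested.

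The 3 members of low level were read from few counts. Fasl, the ligand of Fas, had a mean of 14.8 counts and as few as 2. Its log2 value ran from 1.55 to 3.20 (median 2.84) in 5xFAD females, from 2.63 to 4.05 (median 3.47) in M28L females and from 2.99 to 4.82 (median 4.02) in P522R females. In males it ran from 2.82 to 3.73 (median 3.59) in 5xFAD, from 3.78 to 4.57 (median 4.18) in M28L and from 4.52 to 5.18 (median 4.71) in P522R mice. Among males neither variant overlapped 5xFAD, and among females both did. In 5xFAD mice its mean of 4.8 counts in females and 10.0 in males lay within 1 SD of that of the 100 dimmest genes given above, so no fold is given. Fasl was 0.74 ± 0.19 (SE) higher on the log2 scale with M28L (adjusted p = 0.0101, limma) and 1.39 ± 0.19 higher with P522R (adjusted p = 1.1e-07), and P522R lay 0.65 above M28L (adjusted p = 0.00365). Centred within panels these differences were 0.64, 1.52 and 0.88, and each passed (adjusted p = 0.0178, 6.15e-09 and 6.16e-05). With quantile normalization the difference between the variants was 0.22 and did not pass (adjusted p = 0.243). The depth and the T cell markers given above were also higher in P522R mice, and their part in the rise of Fasl was not tested.

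Fas, the death receptor for this ligand, had a mean of 22.9 counts and as few as 3 in an M28L female. It did not pass against 5xFAD for M28L (-0.14 ± 0.18 SE, adjusted p = 0.702, limma) or P522R (0.28 ± 0.18, adjusted p = 0.172), though with centring within panels it passed for P522R (0.41, adjusted p = 0.0406). It was 0.42 ± 0.18 higher in P522R than in M28L mice (adjusted p = 0.0407), and 0.66 higher with centring within panels (adjusted p = 0.00155). On the deposited scale the call was lost without a sex term (adjusted p = 0.14), and it was also lost with quantile normalization (0.12, adjusted p = 0.575) and housekeeping centring (0.22, adjusted p = 0.278). It was lost too with median centring (0.39, adjusted p = 0.0574) and on leaving out any of 10 mice (2 M28L females, 2 M28L males, 2 P522R females and 4 P522R males), with an adjusted p of up to 0.106. In M28L females it ran from 2.46 to 4.88 (median 3.79) and in M28L males from 4.57 to 5.14 (median 4.97), against 3.77 to 4.91 (median 4.49) and 3.99 to 5.06 (median 4.43) in 5xFAD mice. The M28L females were the widest group, and overlapped the others. Its M28L effect differed between the sexes by -1.11 ± 0.37 (SE) at an unadjusted p of 0.00471 and did not pass adjustment. Cdk2, the kinase of S phase entry that p21 inhibits, had a mean of 20.7 counts. It ran from 2.99 to 4.42 (median 3.92) in M28L females and 3.84 to 4.97 (median 4.47) in M28L males, against 3.13 to 4.93 (median 4.53) and 4.49 to 5.16 (median 4.87) in P522R mice, with overlap in both sexes. Cdk2 was 0.53 ± 0.18 (SE) higher in P522R than in M28L mice (adjusted p = 0.00824), and 0.76 higher with centring within panels (adjusted p = 0.000178). With that centring it was also 0.44 higher in P522R than in 5xFAD mice (adjusted p = 0.0233), where the deposited difference of 0.31 did not pass (adjusted p = 0.12). The difference between the variants did not pass with quantile normalization (0.19, adjusted p = 0.323) or housekeeping centring (0.33, adjusted p = 0.101).

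Of the members of higher level, 7 passed against 5xFAD for neither variant on the deposited scale: Bax, Bcl2, Trp53, Casp1, Casp6, Casp9 and Cdk5rap3. With housekeeping centring Bax (0.24, adjusted p = 0.0347), Bcl2 (0.36, adjusted p = 0.00778) and Cdk5rap3 (0.25, adjusted p = 0.0347) passed with M28L. With centring within panels none of the 7 passed against 5xFAD. Cdk7 joins them when the sexes are averaged (-0.10 with P522R, adjusted p = 0.0804, limma), though it passed with median centring (-0.13, adjusted p = 0.0148) and with centring within panels (-0.15, adjusted p = 0.00986). Trp53 ran from 6.01 to 6.33 (median 6.25), 5.99 to 6.53 (median 6.29) and 5.95 to 6.42 (median 6.18) in 5xFAD, M28L and P522R females. In males the ranges were 6.66 to 7.13 (median 6.87), 6.61 to 7.16 (median 6.87) and 6.50 to 6.99 (median 6.65). The genotypes overlapped throughout. Its difference was 0.03 with M28L (95% interval -0.13 to 0.19) and -0.11 with P522R (-0.27 to 0.05). Bax, which forms pores in the mitochondrial membrane, ran from 7.53 to 7.87 (median 7.80), 7.68 to 8.48 (median 7.88) and 7.65 to 8.04 (median 7.83) in females of 5xFAD, M28L and P522R. Among males it ran from 7.84 to 8.12 (median 7.9), 7.82 to 8.05 (median 7.91) and 7.73 to 8.05 (median 7.92). Its differences were 0.07 with M28L (95% interval -0.06 to 0.21) and 0.02 with P522R (-0.11 to 0.15). The anti-apoptotic Bcl2 ran from 6.20 to 6.6 (median 6.45), 6.3 to 6.73 (median 6.58) and 5.93 to 6.79 (median 6.33) in the same groups of females, and from 6.31 to 6.94 (median 6.59), 6.48 to 7.11 (median 6.91) and 6.41 to 7.04 (median 6.73) in males. Its differences were 0.20 with M28L (0.01 to 0.39, adjusted p = 0.20) and -0.01 with P522R (-0.20 to 0.18, adjusted p = 0.935). Casp1, the inflammasome caspase, differed by -0.08 with M28L and -0.21 with P522R, and Casp6, Casp9 and Cdk5rap3 differed by between -0.14 and 0.09. These intervals bound the differences on the deposited scale and do not show that the genotypes were alike.

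The spread between mice of a group differed from gene to gene. The SD within groups was 0.28 for Cdkn1a, against 0.17 for the median gene of the table, and 0.10 for Bcl2l1, 0.11 for Cdk5r1 and 0.12 for Cdk7. Casp8 and Casp1, with means of 54.8 and 57.7 counts, had 0.29 and 0.30, and the low members Cdk2, Fas and Fasl 0.44, 0.47 and 0.47. In Cdkn1a the SD was 0.07 in 5xFAD females and 0.48 in P522R females (n = 6 each); the difference in spread was not tested.

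Related genes outside the name rule were counted from lists of the same pathways and were given no test of the list. Of 18 death receptor and TNF genes 8 were measured: 1 rose with M28L (Tnfrsf10b, a receptor for the ligand TRAIL with a mean of 11.9 counts, by 0.71, adjusted p = 0.0473, limma) and 5 rose with P522R. The P522R rises with the smallest p were Tnfrsf21 (0.34, adjusted p = 3.21e-07), the decoy receptor Tnfrsf11b (0.41, adjusted p = 0.000574) and the TNF receptor Tnfrsf1a (0.39, adjusted p = 0.000711). Of the 5, Tnf, with a mean of 11.7 counts, did not pass with median centring (0.40, adjusted p = 0.0699). Of 20 genes in a mitochondrial list, which was not limited to genes that promote death, 9 were measured. With M28L only Apaf1, the scaffold on which caspase-9 is activated, passed (0.31, adjusted p = 0.0193). With P522R 7 of the 9 fell, with Park7 (-0.39), Opa1, a fusion protein of the inner membrane (-0.48), and Bnip3 (-0.75) at the smallest p. The other falls were those of Xiap (-0.69), Cycs (-0.77), Htra2 (-0.21) and Pink1 (-0.19). Of 10 pyroptosis and necroptosis genes 3 were measured, and none passed with M28L. With P522R the inflammasome sensor Nlrp3 rose (0.38, adjusted p = 0.0426) and the cytokine Il18 fell (-0.27, adjusted p = 0.00153). Nlrp3 had a mean of 25.5 counts and did not pass with median centring (0.34, adjusted p = 0.0676).

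Of 35 further cell cycle genes 11 were measured. None passed with M28L, including the 3 with the smallest p, Ccna1 (0.31), E2f3 (0.09) and Cdc7 (0.16). With P522R 1 rose and 5 fell, among them Cdc27, a subunit of the anaphase-promoting complex (-0.77), cyclin D1 (Ccnd1, -0.93) and Ccnh, the cyclin partner of Cdk7 (-0.81). The rise, of Bub3 (0.12, adjusted p = 0.00431, limma), did not pass with median centring (0.08, adjusted p = 0.0604). Proliferation markers were little represented: Mki67 had a mean under 20 counts and differed by 0.00 with M28L and 0.18 with P522R, neither of which passed, and Pcna fell by 0.16 with P522R (adjusted p = 0.0419, limma). Of 29 p53 and DNA damage genes 6 were measured. None passed with M28L. With P522R 1 rose and 3 fell: the damage kinase Atr (-0.48) and the polymerases of the DNA damage response Parp1 (-0.22) and Parp2 (-0.33). Hdac1 rose (0.15, adjusted p = 0.0308, limma) but did not pass with median centring (0.11, adjusted p = 0.111). In all genes 65.4% passed with P522R and 10.3% with M28L by the same test. Of the 1266 genes 513 passed upward and 315 downward with P522R, and 59 and 71 with M28L. These are the background of the counts above.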

How the data were processed

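Cortical RNA of 36 mice was read on 2 nCounter panels, and 72 records were grouped by the genotype and sex in their titles. Log2 values deposited by the authors, with both panels of a mouse joined in a column, had a normalization not given in the sources used here. Of 1517 rows, 251 named no gene and were left out. On a linear scale 100.0% were multiples of a step per mouse and panel within 0.05 counts, which gave the counts used to describe depth. The members, lists and named genes followed written rules (called members, the 5 smallest p per sex and interaction comparison, Cdkn1a, Trp53, Bcl2 and Bax in any case, and the 3 smallest p per other list), and were chosen with earlier results of these data known. Some genes that these rules take are not reported here.

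Tests used limma 3.58.1 in R 4.3.3 with a mean for each of 6 groups, a spread per gene shared by all mice and a trend on mean level. Tests were two-sided, with no pseudocount, Benjamini-Hochberg adjustment over 1266 genes and a threshold of 0.05. The fit was tested on simulated data. Alternatives were median, panel-median, quantile and housekeeping scaling, a filter, a pseudocount of 20, other variance models, fewer groups, no sex term, an index block and leaving out each mouse. The labels do not say what the index numbers stand for. Mice of the same sex and number in different genotypes correlated at a mean of -0.10 (22 pairs, -0.48 to 0.29). So few pairs cannot settle whether a number marks something shared.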

Additional observations from a re-analysis of the deposited data

Results flagged for a closer look

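The P522R effect differed between females and males in a pair of members by the test of the difference itself. The value was 0.48 for Cdk5r1 (adjusted p = 0.000378, limma) and -0.32 for Cdk7 (adjusted p = 0.0167), as female effect minus male effect on the log2 scale.

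In 66 groups of 6 mice over 11 named members, 6 had a mouse set apart from the rest by Dixon's criterion, and chance alone gives about 1 in 20. Bax was at 7.53 in the 5xFAD female 1189, where the next lowest was 7.78, and at 8.48 in the M28L female 20, where the next highest was 7.94. Bcl2 was at 6.3 in the M28L female 12 (next 6.58), the lowest of its group. Cdk5 was at 10.04 in the 5xFAD male 1177 (next 9.85) and at 10.23 in the P522R female 60 (next 9.76), each the highest. Cdkn1a was at 7.36 in the 5xFAD female 1180, below the other 5xFAD females, of which the nearest was at 7.48.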

How the results depend on the processing

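Counts of called members depended on scaling most in the comparison of the sexes. In 5xFAD mice the 12 calls became 5 with housekeeping centring, 4 with median centring, 4 with centring within panels and 3 with quantile normalization. In M28L mice the 13 became 4, 6, 7 and 4 under the same settings, and in P522R mice the 13 became 0 under each of the 4. Housekeeping centring moved the median of all genes by over 0.1 (M28L against 5xFAD, 0.17). It gave 7 calls for M28L over both sexes, 8 in M28L females, 2 in M28L males, 3 in P522R females and 0 for the difference of the P522R effect between the sexes. Without a sex term there were 0 calls for M28L, 4 for P522R and 4 between the variants. Centring within panels left 2 calls for M28L and 0 in M28L females and in M28L males. In M28L males the count was 0 without the variance trend, 2 with only the groups compared and 0 with the replicate block on sex and index number; in P522R males it was 9 with only the groups compared. The block gave 3 in place of 4 calls for M28L over both sexes and, apart from M28L males, changed no count by over 1.5 times. Its consensus correlation was -0.10, which does not settle what the numbers stand for. Leaving out each mouse gave 2 to 4 calls for M28L (2 without any of 2 5xFAD females, 2 5xFAD males, 3 M28L females and 3 M28L males), 0 to 2 in M28L females, 0 to 1 in M28L males and 3 to 7 in P522R males (7 without the M28L female 20). Directions reversed between the variants for Bcl2l1 (-0.10), Cdk5 (-0.048) and Cdk5r1 (-0.084) with housekeeping centring, and for Bid (0.009) and Casp9 (0.22) with centring within panels. In the sex comparison, centring within panels reversed Bcl2l1 (0.045, 0.086 and 0.039 in 5xFAD, M28L and P522R mice) and Cdk5rap3 (0.009 and 0.048 in 5xFAD and M28L mice). The causes of these changes were not tested. Fasl, Fas and Cdk2, at means of 14.8 to 22.9 counts, are limited by depth.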
